A study of Rattus norvegicus with 12 samples.

Results

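The 6 enzymes that carry mevalonate to squalene, Mvk, Pmvk, Mvd, Idi1, Fdps and Fdft1, were followed in rat liver RNA on 1-colour Affymetrix arrays. They were taken as every probe set that the platform annotation gives to 1 of these symbols alone. This gave 10 probe sets among 31042 that were not array controls, and 6 genes among 14217 with a symbol of their own. Mvk had 3 probe sets, Idi1 and Fdft1 had 2 each, and Pmvk, Mvd and Fdps had 1 each. Each array held the liver RNA of 1 animal, and there were 12 arrays. Sprague Dawley livers came from 3 germ free rats (animals 1, 3 and 4) and from 3 normal rats that were not germ free (animals 6, 7 and 8), called conventional here. Han Wistar livers came from 3 control rats without antibiotic (animals 1, 2 and 3) and from 3 antibiotic dosed rats (animals 13, 14 and 15). The dosed rats drank streptomycin and penicillin for 8 days. The labels state 4 mg/ml and 2 mg/ml and a 10-fold stock, and leave unclear which of stock and diluted water had these strengths. No genotype, sex, age, diet, body weight or time of tissue collection is stated for any group in the labels, and such factors cannot be told apart from the groups. Each treated group was compared with the control of its own strain only, because strain and experiment cannot be told apart.

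The mevalonate pathway builds isoprenoid units from acetyl-CoA. Mevalonate is phosphorylated by Mvk and again by Pmvk, and Mvd removes a carboxyl group to give isopentenyl diphosphate. Idi1 interconverts this unit and its isomer, Fdps joins them to farnesyl diphosphate, and Fdft1 condenses farnesyl diphosphate to squalene, the first product committed to sterols. Farnesyl diphosphate is also drawn on for ubiquinone, dolichol and protein prenylation. In liver these genes are textbook targets of the transcription factor SREBP-2, which binds sterol regulatory elements together with NF-Y at CCAAT boxes and is released when membrane sterols are low.

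RefSeq promoter windows of assembly GRCr8, reaching from 250 bases before to 50 bases after a gene's start, were at hand for 4 of the 6 genes (Mvk, Mvd, Idi1 and Fdps). All 4 are shown, as no window was at hand for the others. Idi1 and Fdps were among the genes that fell in germ-free livers, and Mvk and Mvd did not pass. Each window was searched on both strands for 5 motifs. The first was the sterol element TCACNCCAC with up to 1 mismatch. Its opening 6 letters, TCACNC, were searched alone, as was a second form of the sterol element, TCACACGAG, and these searches were both added after the sequences had been seen. The others were the NF-Y box CCAAT, which reads ATTGG from the opposite strand, and the Sp1 box GGGCGG. In the lines that follow, capitals mark matches to any motif but the Sp1 box. All lines run 5′ to 3′ along the gene's own strand, the minus strand of the assembly, and end before the gene's start.
Fdps, chr2:176804889-176804984: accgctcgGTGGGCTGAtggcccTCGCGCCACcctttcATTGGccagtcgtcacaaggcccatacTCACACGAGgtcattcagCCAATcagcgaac
Idi1, chr17:66547547-66547656: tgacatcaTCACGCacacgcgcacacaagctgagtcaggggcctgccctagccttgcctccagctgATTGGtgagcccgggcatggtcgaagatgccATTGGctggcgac
Mvd, chr19:67414997-67415153: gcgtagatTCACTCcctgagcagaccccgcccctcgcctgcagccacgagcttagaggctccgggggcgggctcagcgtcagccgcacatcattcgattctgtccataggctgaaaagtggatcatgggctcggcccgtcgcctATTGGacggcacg
Mvk, chr12:47819505-47819684: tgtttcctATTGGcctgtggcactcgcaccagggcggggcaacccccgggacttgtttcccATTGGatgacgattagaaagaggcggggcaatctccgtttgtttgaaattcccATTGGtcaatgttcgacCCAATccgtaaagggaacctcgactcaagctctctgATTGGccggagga

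All 4 windows held CCAAT at least 2 times, with 5 sites in Mvk and 2 each in Fdps, Idi1 and Mvd (1 of the Mvd sites lies outside the printed stretch). Among 33465 windows of the same length, 37.5% held CCAAT and 11.2% held it 2 times or more. In Fdps the element TCACACGAG began at position -103 from the start, between CCAAT sites at -130 and -85. TCACACGAG was taken as the sterol element of the Fdps promoter, so its presence in that window was fixed in advance. It lay in 0.123% of all windows and in none of the other 3, which is no test of specificity. Fdps was also the only window of the 4 with a match to TCACNCCAC at 1 mismatch (2 sites, against 23.7% of all windows with a match), and 0 of 4 matched it exactly (1.12% of all windows). The shorter TCACNC stood in Fdps, Idi1 (at -124) and Mvd (2 sites, 1 of them past the gene's start), and in 41.7% of all windows. It overlaps the Fdps element and is part of TCACNCCAC. GGGCGG was found in Fdps, Mvk and Mvd and in 33.1% of all windows. Among 12 promoter windows of listed pathway genes that act before mevalonate or after squalene, 9 held CCAAT, 6 a match to TCACNCCAC at up to 1 mismatch, 7 the shorter TCACNC, 11 GGGCGG and 0 TCACACGAG. These matches describe letters in a window and do not show binding.

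In germ-free livers, 4 of the 6 enzymes fell and 0 rose. Idi1 fell to 15.1% of its conventional mean signal, Fdps to 34.2%, Pmvk to 44.0% and Fdft1 to 45.8%. Mvk and Mvd stood at 72.7% and 51.0% and did not pass the test. The median log2 fold change of the 6 was -1.09, and that of all 9300 genes tested was 0.03. All 6 had an unadjusted p under 0.05, as did 2615 of the 9300 genes. Of all genes, 13.2% passed in either direction and 6.74% were lower. Signals of germ-free and conventional animals did not overlap for 5 of the 6 enzymes (all but Mvd), and did not overlap for 29.9% of all genes. Fold changes and standard errors are on the log2(signal + 16) scale, which understates changes of dim genes. Tests are by limma over all 12 arrays, two-sided, with Benjamini-Hochberg adjustment over the 9300 genes and a threshold of 0.05.

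**Figure D1:**
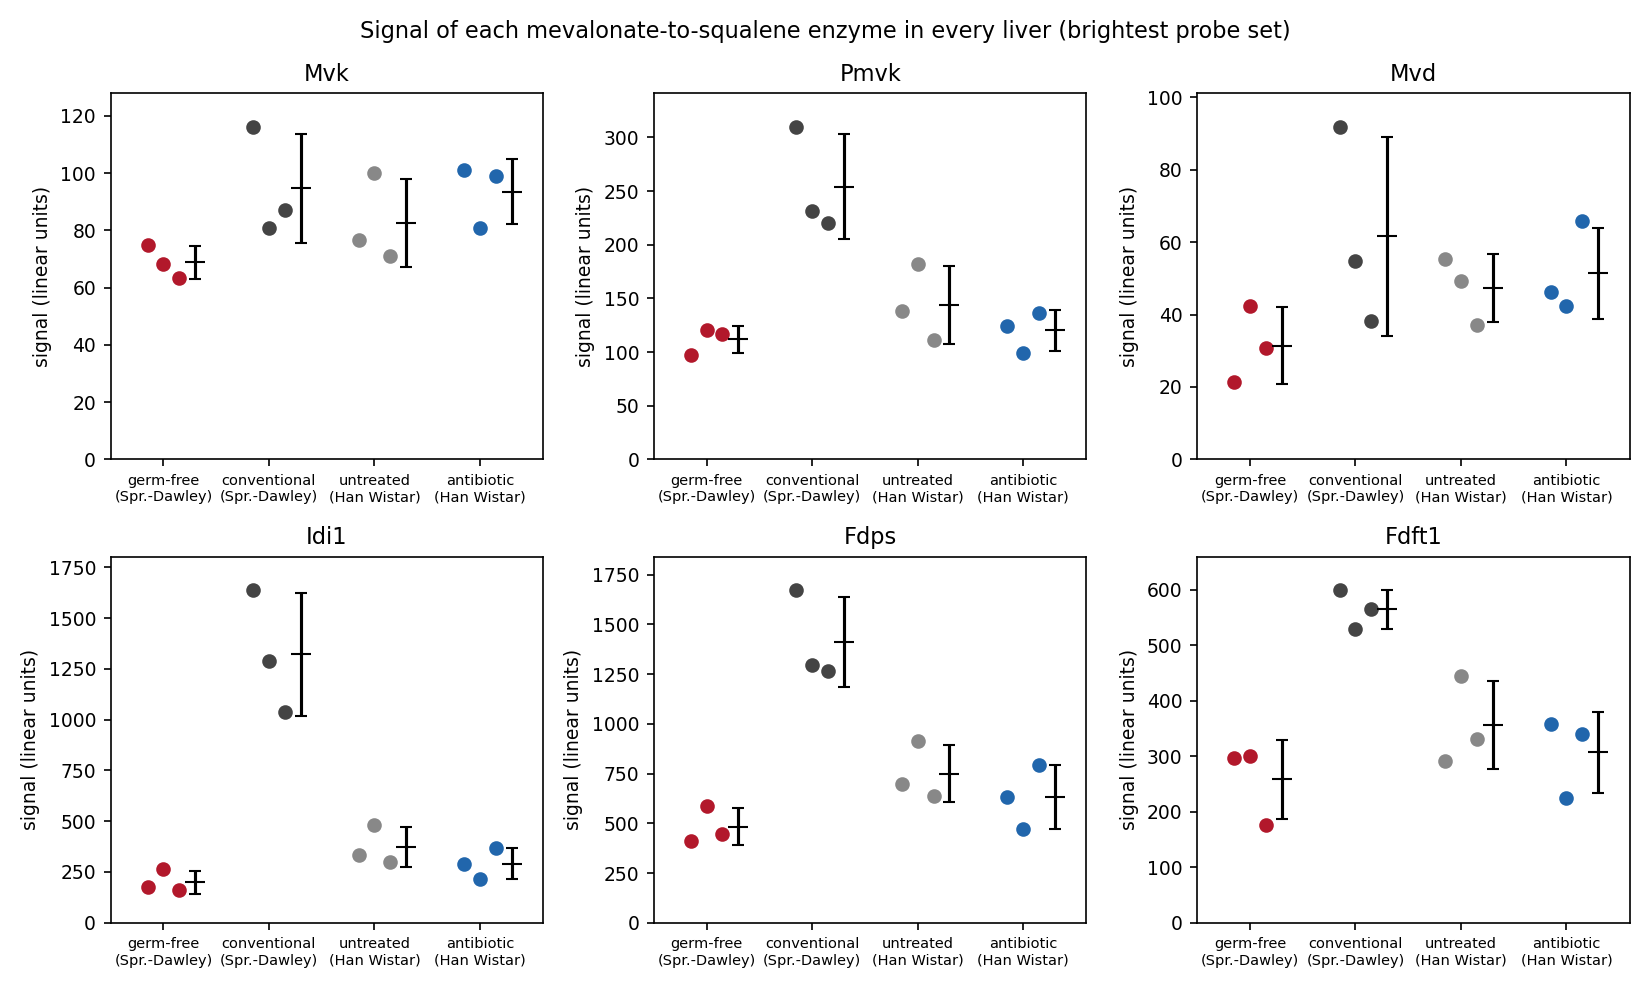
Signal (linear units, axis from 0) of the brightest probe set of each enzyme in every liver. Points are animals in the order of their numbers, and the bar beside them is the mean ± SD of 3 (untreated are the Han Wistar controls). Conventional Sprague Dawley livers stand highest for Idi1 (1038 to 1637), Fdps (1268 to 1672), Fdft1 (529 to 599) and Pmvk (220.2 to 310.0), with no overlap with any other group.

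The kinases and the decarboxylase at the head of the stretch differed less than Idi1. Mvk, which makes phosphomevalonate, had signals of 74.9, 68.3 and 63.2 in germ-free animals 1, 3 and 4 and of 116, 80.7 and 87.0 in conventional animals 6, 7 and 8. Every germ-free value lay under every conventional one, by a gap that was small beside the spread of the conventional animals. The log2 fold change was -0.37 ± 0.15 (SE; limma adjusted p = 0.116), and it was -0.24 without conventional animal 6. Pmvk, the next kinase, had signals of 97.6, 120.5 and 117 in germ-free and 310.0, 232 and 220.2 in conventional livers. All germ-free livers were well below all conventional ones, with means of 112 ± 12.4 and 254 ± 48.9 (SD, n = 3 each). Pmvk fell by 1.07 on the log2 scale (SE 0.17; limma adjusted p = 0.00125).

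Mvd, the decarboxylase, had the dimmest of the brightest probe sets and the widest standard error. Its signals were 21.3, 42.3 and 30.7 in germ-free and 91.9, 54.7 and 38.2 in conventional livers. Germ-free animal 3 lay above conventional animal 8, so the groups overlapped. The log2 fold change was -0.68 ± 0.24 (limma adjusted p = 0.0763). It passed without conventional animal 8 (-0.90, adjusted p = 0.027), under quantile normalization (-0.78, adjusted p = 0.0354) and with the actin covariate described below (adjusted p = 0.0381). Over its 24 alternatives the adjusted p ran from 0.027 to 0.25, and the log2 value was -0.41 without conventional animal 6 (adjusted p = 0.25) and -0.38 with an offset of 64 in place of 16.

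Idi1, the isomerase, showed the deepest fall of the 6. Its signals were 174, 263 and 161 in germ-free animals 1, 3 and 4 and 1637, 1288 and 1038 in conventional animals 6, 7 and 8. The highest germ-free liver (263) lay far under the lowest conventional one (1038). Idi1 fell by 2.64 on the log2 scale (SE 0.23; 95% interval -3.14 to -2.15; limma adjusted p = 1.45e-05). Its second probe set showed 44.5, 82.8 and 45.5 against 678, 429.8 and 254. That is again a full separation, and this probe set fell by 2.61 (SE 0.29; limma adjusted p = 9.71e-05 over 15523 probe sets, of which 12.2% passed).

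The last steps, both transferases that use prenyl diphosphates, fell less than Idi1. Fdps, the farnesyl diphosphate synthase, had signals of 413, 589 and 445 in germ-free and 1672, 1298 and 1268 in conventional livers. The highest germ-free liver, animal 3, stayed well under the lowest conventional one. Fdps fell by 1.52 (SE 0.19; limma adjusted p = 0.000212). Fdft1, the squalene synthase, had signals of 298, 301 and 177 against 599, 529 and 566. Germ-free animal 4 was the low one of its group, and the groups stayed apart. Fdft1 fell by 1.12 (SE 0.21; limma adjusted p = 0.00344).

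Probe sets of 1 gene did not always read alike. The second Fdft1 probe set had signals of 93.4, 134 and 74.9 in germ-free and 214, 161 and 156 in conventional livers. It fell as well, by 0.74 (SE 0.20; limma adjusted p = 0.0277 over all probe sets). The second Mvk probe set had signals of 32.3, 44.4 and 36.7 against 43.3, 33.5 and 28.8, so the groups overlapped. Its log2 fold change was 0.08 ± 0.16 (limma adjusted p = 0.80), against -0.37 for the brighter one, and the mean of both gave -0.15. The third Mvk probe set lay under the signal filter, at 0.7 to 12.8 on all 12 arrays, and was not tested. The gene table names 5 pseudogenes after Fdps and 1 after Idi1, so these probe sets may read more than 1 locus. Of the 10 probe sets 9 passed the filter on low signal.

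**Figure D2:**
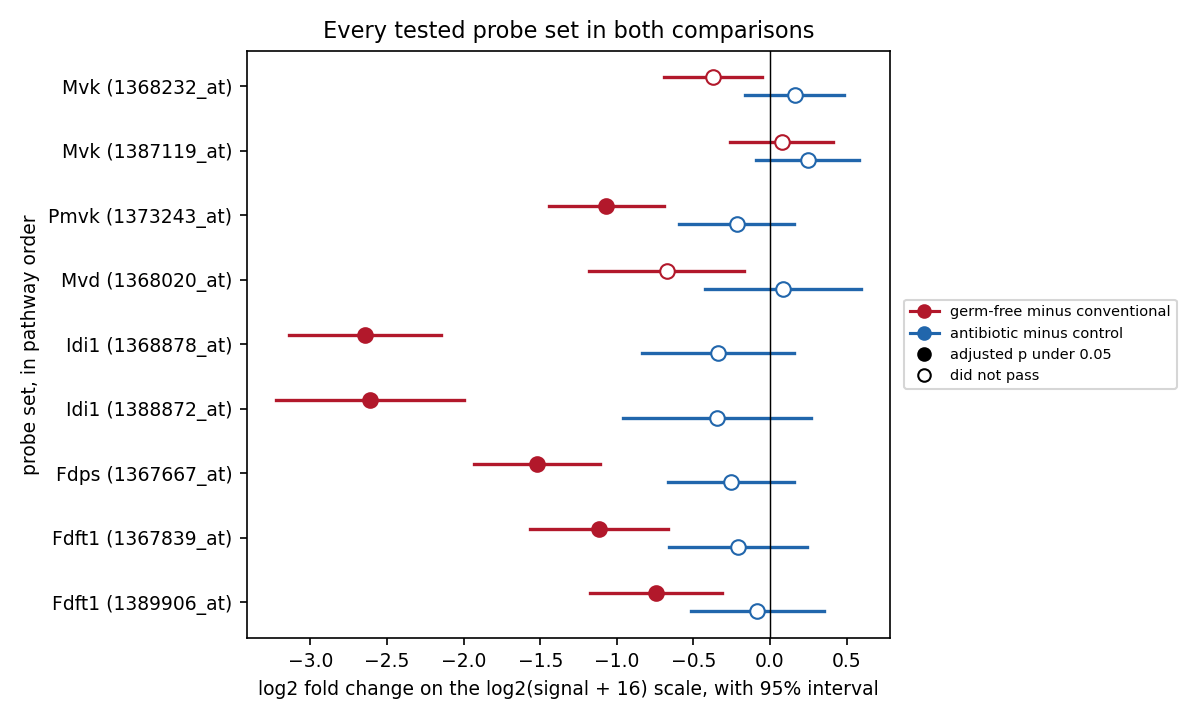
Log2 fold change (point) and 95% interval (line) of the 9 tested probe sets, germ-free minus conventional in red and antibiotic minus control in blue. Filled points passed at an adjusted p under 0.05 over 15523 probe sets. Both Idi1 probe sets sit near -2.6 in red, and no blue point is filled.

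In antibiotic-dosed Han Wistar livers, 0 of the 6 enzymes passed limma's test, and 0 reached an unadjusted p of 0.05. Over the whole set of genes 2 of 9300 passed (0.0215%), and 969 had an unadjusted p under 0.05. The groups overlapped for all 6, while they did not overlap for 18.3% of all genes. The median log2 fold change of the 6 was -0.21, beside 0.00 over all genes. Idi1 had signals of 288, 217 and 369.8 in dosed animals 13, 14 and 15 and 334, 483 and 300.3 in control animals 1, 2 and 3. Dosed animals 13 and 14 lay under every control, and animal 15 lay within the control range. The log2 value was -0.34 ± 0.23, with a 95% interval of -0.83 to 0.16 (limma adjusted p = 0.658).

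The other 5 enzymes had log2 values between -0.25 and 0.16 in that comparison. Fdps had signals of 635, 471 and 792 in dosed and 699.9, 912 and 638 in control livers, with wide overlap. Its log2 value was -0.25 (95% interval -0.67 to 0.16). Fdft1 had 358, 224 and 339 against 292, 445 and 331, where the lowest value was dosed animal 14 and the highest control animal 2. Its log2 value was -0.21 (-0.66 to 0.24). Pmvk had 124, 98.9 and 137 against 138, 182 and 111, a log2 value of -0.22 (-0.59 to 0.16). Mvk and Mvd lay on the other side of 0. Mvk had 101, 80.7 and 99.0 against 76.7, 99.9 and 70.9 (log2 0.16, -0.16 to 0.48), and Mvd had 46.1, 42.3 and 65.8 against 55.4, 49.4 and 37.2 (log2 0.08, -0.42 to 0.59). The second Mvk probe set was higher in every dosed animal (59.6, 40.6 and 42.2) than in any control (40.5, 33.0 and 38.1), the closest pair being 40.6 and 40.5. That difference did not pass (log2 0.24 ± 0.16, limma adjusted p = 0.654). With 1 animal left out, Idi1 ran from -0.52 to -0.14, Fdps from -0.43 to -0.06, Fdft1 from -0.34 to -0.01, Pmvk from -0.37 to -0.05 and Mvk from 0.07 to 0.28. The values nearest 0 came without control animal 2 for Idi1 and Pmvk, without antibiotic animal 14 for Fdps and Fdft1 and without control animal 3 for Mvk.

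The difference between the 2 comparisons was tested directly for each enzyme. It passed for Idi1 (log2 -2.30 ± 0.33, limma adjusted p = 0.00148) and Fdps (-1.27 ± 0.27, adjusted p = 0.015), 2 of 6, while 5.94% of all genes passed. For Pmvk it was -0.85 ± 0.25 (adjusted p = 0.0574). That value passed without control animal 2 (-1.02, adjusted p = 0.0315), under quantile normalization (adjusted p = 0.0488) and under median centring (adjusted p = 0.0492). For Fdft1 it was -0.91 ± 0.30 (adjusted p = 0.0891), and it passed without antibiotic animal 14 (-1.11, adjusted p = 0.0449). For Mvd (-0.76, or -0.49 without conventional animal 6) and Mvk (-0.53, or -0.35 with the mean of its probe sets) it did not pass. All 6 had an unadjusted p under 0.05 in this limma test, as did 1980 of 9300 genes. Strain, experiment and treatment differ together here and cannot be told apart.

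Across the 4 groups the order of mean signals was germ-free, antibiotic, control, conventional for Idi1, Fdps, Fdft1 and Pmvk. Idi1 means were 199 ± 55.8, 292 ± 76.6, 373 ± 97.1 and 1321 ± 301 (SD, n = 3 each). Fdps means in the same order were 483 ± 93.8, 632 ± 160.4, 749.8 ± 144 and 1413 ± 225. For the brightest probe sets of these 4 enzymes the ranges of neighbours in the order overlapped except between control and conventional, which stood apart. The second Fdft1 probe set had the same order, but its control (115 to 169.9) and conventional (156 to 214) ranges overlapped. For Mvk and Mvd the order was germ-free, control, antibiotic, conventional, and every pair of neighbours overlapped. The 2 control groups are of different strains and experiments, so this gap between them is given as values only. The actin ratio described below also differed between them (5.37 ± 0.839 in conventional and 2.55 ± 0.123 in control livers, SD). Its part in the gap was not tested.

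Individual livers tended to stand high or low for several of the enzymes at once. Conventional animal 6 had the highest signal of its group for 6 of 6 enzymes, while it was highest for 40.7% of all genes. Antibiotic animal 14 was lowest of its group for 6 of 6, against 31.0% of all genes. Control animal 2 was highest for 5 of 6 (30.7% of all genes) and germ-free animal 3 for 5 of 6 (30.0%). The exceptions were Mvd in control animal 2 and Mvk in germ-free animal 3. Control animal 3 was lowest for 5 of 6 (37.6% of all genes) and conventional animal 8 for 4 of 6 (40.6%). These animals were named after their values were seen. The same animals stood out in the enzymes after squalene. There conventional animal 6 was highest for 9 of 11, and control animal 2 and germ-free animal 3 for 10 of 11 each. Antibiotic animal 14 and conventional animal 8 were lowest for 9 of 11 each, and control animal 3 for 7 of 11. Genes measured on 1 array share its RNA and its scaling, and the part of either in this pattern was not tested.

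**Figure D3:**
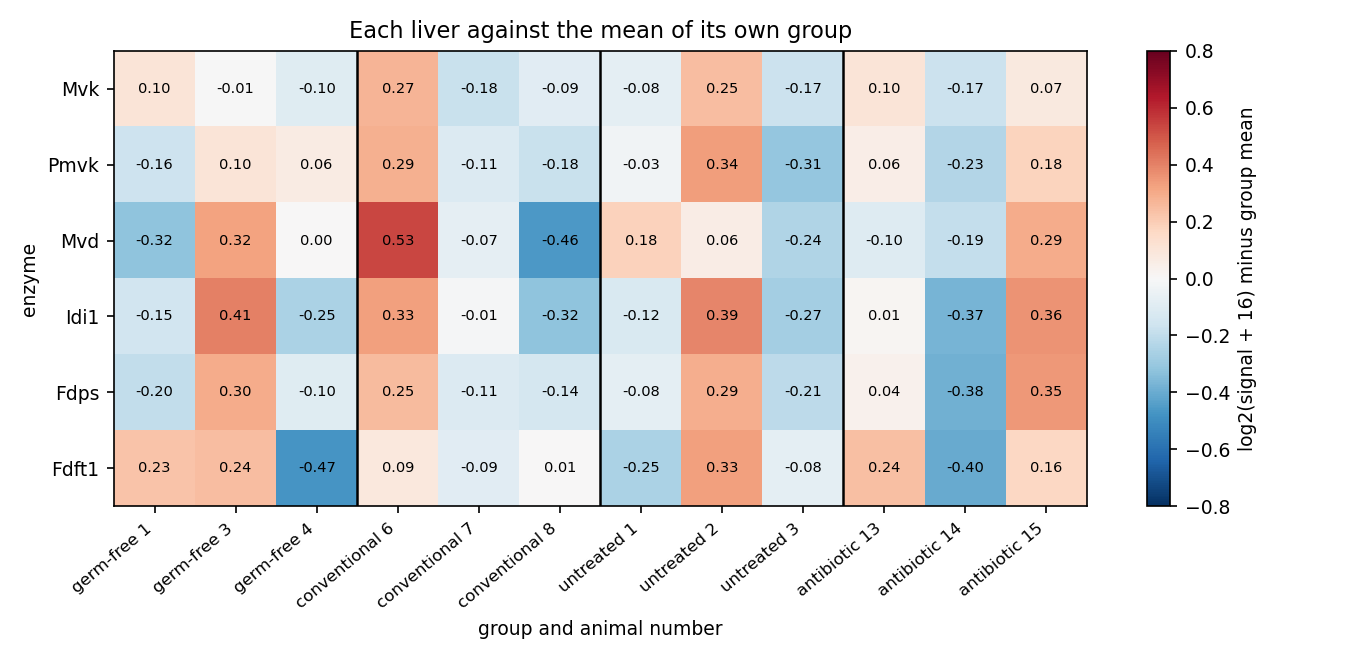
Log2(signal + 16) of each enzyme (rows) in each liver (columns) minus the mean of its own group, with black lines between groups (untreated are the Han Wistar controls). Conventional animal 6 is above its group mean in every row (0.09 to 0.53) and antibiotic animal 14 below it in every row (-0.40 to -0.17).

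Around these steps the rest of the pathway was read from lists of named genes. Before mevalonate, Acat2, an acetyl-CoA acetyltransferase, was tested. Acat2 fell in germ-free livers by 1.16 (SE 0.21; limma adjusted p = 0.00231; -0.73 with an offset of 64), with signals of 37.8 ± 8.5 against 108 ± 41.3 (SD, n = 3). Of 11 tested genes after squalene 9 fell, 0 rose and 2, Nsdhl and Lbr, did not pass (median log2 -0.80). Of all genes, 6.74% passed and were lower in germ-free livers. The squalene epoxidase Sqle fell by 3.01 (-1.94 with an offset of 64), with a dim germ-free signal of 19.2 ± 14.8 against 257 ± 59.5. Cyp51, the sterol demethylase, fell by 2.41. The methyl oxidase Msmo1 fell by 2.31 and the sterol reductase Tm7sf2 fell by 2.24. In antibiotic-dosed livers 0 of these 11 passed limma's test (median -0.09, smallest adjusted p = 0.527, and 0 at an unadjusted p under 0.05). The germ-free value of Idi1 (-2.64) lay between those of Sqle and Cyp51.

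**Figure D4:**
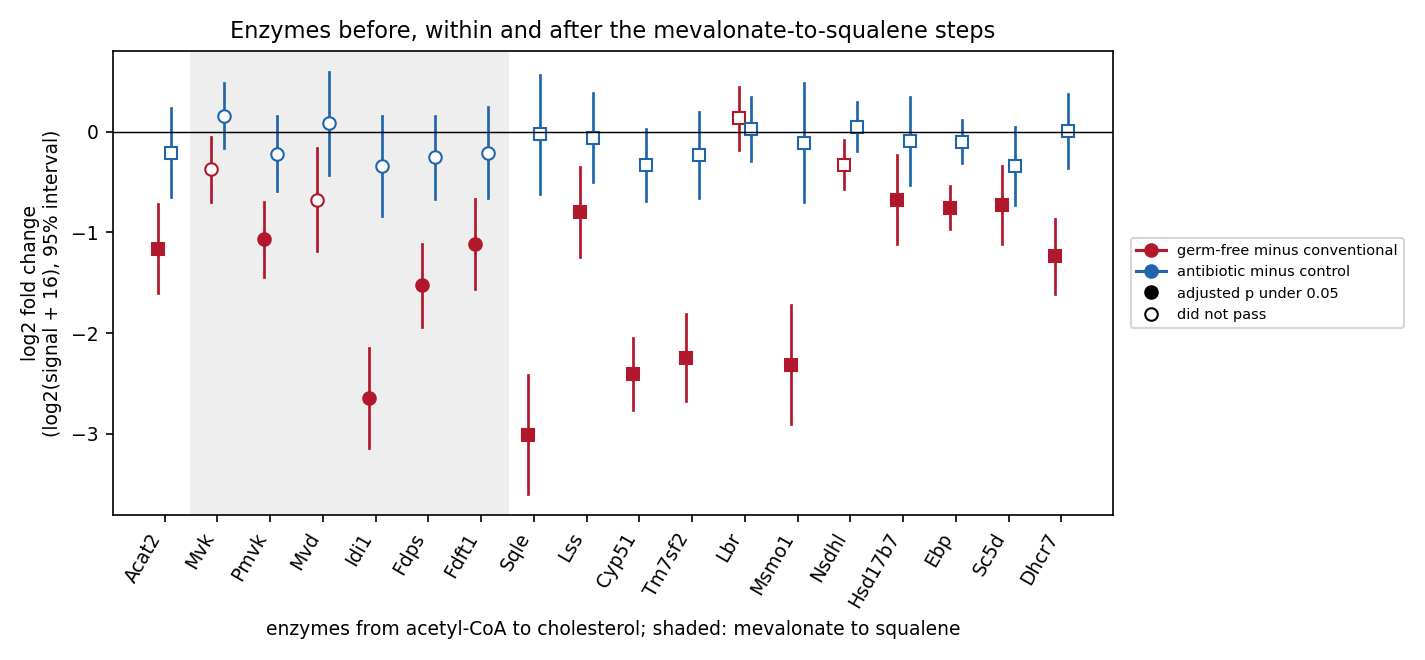
Log2 fold change with 95% interval for the enzymes from Acat2 to Dhcr7, with circles for the 6 mevalonate-to-squalene enzymes (shaded) and squares for the others. Red is germ-free minus conventional and blue antibiotic minus control, and filled symbols passed at an adjusted p under 0.05. In red, Sqle (-3.01) and Idi1 (-2.64) lie lowest, and all blue intervals include 0.

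Genes listed for sterol sensing and uptake went in both directions. Their counts stand beside 13.2% of all genes that passed in germ-free livers and 0.0215% in antibiotic-dosed livers. In germ-free livers 2 of the 8 tested fell, 1 rose and the other 5 missed the threshold (median -0.26), and 0 of 8 passed in antibiotic-dosed livers by limma (2 at an unadjusted p under 0.05). Insig1, which retains the SREBP complex in the endoplasmic reticulum, fell by 0.97 (SE 0.21; limma adjusted p = 0.00897), and its relative Insig2 fell by 0.51 (adjusted p = 0.0091). With the actin covariate Insig2 no longer passed (-0.44, adjusted p = 0.0875). Srebf2, which encodes SREBP-2, had a log2 value of -0.31 (SE 0.17; adjusted p = 0.236), which lay at -0.16 without conventional animal 6 and at -0.47 without germ-free animal 3. Srebf1, a factor better known for fatty acid synthesis, rose by 2.44 (SE 0.39; adjusted p = 0.00105), opposite to the enzymes here. The transcript of such a factor does not give the amount of its cleaved protein.

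Enzymes that use isoprenoid intermediates for other products did not pass in either comparison. Of 12 tested, 0 passed limma's test in germ-free livers (median -0.20) and 0 in antibiotic-dosed livers (median 0.10). Over all genes 13.2% and 0.0215% passed, so 0 of 12 is not read as a trait of these enzymes. At an unadjusted p under 0.05 the counts were 4 and 1 of 12, beside 2615 and 969 of 9300 genes. The 1 in antibiotic-dosed livers was Fntb, a farnesyltransferase subunit named after its value was seen (0.78, adjusted p = 0.173). In germ-free livers the 4 with the smallest p were Pdss2, of ubiquinone synthesis (-0.44 ± 0.14, adjusted p = 0.0559), Dhdds (-0.55) and Nus1 (-0.29), which together make dolichol chains, and Ggps1, the geranylgeranyl diphosphate synthase (0.30). Pdss2 passed in 7 of its 24 alternatives, with an adjusted p of 0.0173 under array weights. Dhdds was -0.23 without conventional animal 6 and passed without conventional animal 7 (-0.78, adjusted p = 0.0348). Nus1 was -0.14 with the mean of its probe sets, and Ggps1 was 0.16 with an offset of 64. Ggps1 takes the same substrate as Fdft1, and its values were 47.2 ± 2.19 in germ-free and 35.5 ± 5.73 in conventional livers.

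Outside these lists, the 5 genes whose signal followed the mean of the 6 enzymes most closely were Tmem97, Gsta3, Oxa1l, Me1 and Fads1. The measure was Pearson's r over the 12 arrays, which share groups and strains, so it is given as a description. It was 0.96 for Tmem97, the sigma-2 receptor, 0.93 for the glutathione transferase Gsta3 and for Oxa1l, an insertase of the inner mitochondrial membrane, 0.92 for malic enzyme Me1 and 0.91 for the desaturase Fads1. Among the enzymes themselves r with their own mean ran from 0.79 for Mvk to 0.97 for Fdps. Each enzyme is part of that mean, which raises its r, so these values are not like those of the outside genes. These 5 genes were chosen on the same arrays, so their differences are given with no test. Germ-free minus conventional log2 values were -1.22 for Tmem97, -2.14 for Me1, -1.58 for Fads1, -0.41 for Oxa1l and -4.32 for Gsta3 (-2.66 with an offset of 64 and -6.69 with an offset of 1). Antibiotic minus control values ran from -0.49 for Me1 to 0.08 for Fads1.

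Cell type markers and RNA quality were read beside these results. Of all genes, 13.2% passed in germ-free livers and 0.0215% in antibiotic-dosed livers. An unadjusted p under 0.05 was reached by 2615 and 969 of 9300 genes. Hepatocyte markers (7 of 8 tested) summed to a signal of 52500 to 59300 in the germ-free group, against 48500 to 53800 in the conventional one, and 0 of 7 passed limma's test (2 at an unadjusted p under 0.05). Of 6 sinusoidal endothelial markers 5 rose in germ-free livers, with summed signals of 1280 to 1800 against 697 to 880. Of 5 Kupffer cell markers 1 fell, and the 5 together summed to 1140 to 1570 in germ-free and 1570 to 2390 in conventional livers. Stellate (6), bile duct (2) and lymphocyte (1) markers had 0 that passed (0 at an unadjusted p under 0.05). No tested marker was at 0 on any array. In antibiotic-dosed livers 0 markers passed limma's test, yet all 7 hepatocyte markers had an unadjusted p under 0.05 and lay above 0 (median log2 0.41, summed signals of 40900 to 50800 against 31100 to 37400 in controls). An unadjusted p under 0.05 was also reached by 2 Kupffer cell, 2 stellate and 1 lymphocyte marker, and by 0 endothelial and 0 bile duct markers. In whole tissue, fewer cells of a type and less RNA per cell cannot be told apart, and the part of these markers in the results was not tested. As a measure of RNA integrity, the array's beta-actin probe sets at the 3′ end gave a signal over that at the 5′ end of 4.39 ± 0.762 for germ-free animals, 5.37 ± 0.839 for conventional animals, and 2.73 ± 0.131 in dosed and 2.55 ± 0.123 in control livers (SD over 3 animals; p = 0.2 each by an exact two-sided permutation test, which cannot go under 0.1 here). The mean ratio was higher in both Sprague Dawley groups than in both Han Wistar groups, a difference that was not tested. With the ratio as a covariate Pmvk, Idi1, Fdps and Fdft1 still passed in germ-free livers, as did Mvd.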

How the data were processed

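The authors deposited linear signal intensities, 1 for each probe set on each array. The submitters' processing notes name MAS5, with a version that the sources used here do not give. Detection calls were not used. Means trimmed by 2% at each end lay at 100.0 to 100.1 on all arrays, so values were used as deposited. Of 31099 probe sets 57 were controls and 20826 of the others had 1 gene symbol, updated to GRCr8 by gene identifier (20758) or accession (2) or kept (66). A probe set was kept where its mean over all arrays reached the median, 19.67, and the brightest stood for each gene (9300 genes). The fit used log2(signal + 16) in limma 3.58.1, run in R 4.3.3 (1 mean per group over 12 arrays, eBayes with intensity trend, 8 residual and 5.84 prior degrees of freedom). A second fit took all 15523 passing probe sets. The fit was also run on data simulated from these arrays with independent noise, which checks the code and not the results given here. Arrays of a group correlated at 0.975 to 0.986, and the number of arrays limits the precision (median SE 0.144). P-values set each difference against the spread between animals of a group, each read on 1 array. Members, lists and tests were chosen with earlier results of these data known. Named were all 6 enzymes, up to 4 genes of each pathway list by smallest p, and the 5 genes most correlated with the enzymes' mean. Alternatives were offsets of 1 and 64, other filters, scalings, priors, weights and probe set rules, own arrays, the actin covariate and leaving out each animal.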

Additional observations from a re-analysis of the deposited data

Results flagged for a closer look

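Limma's test of the difference between the germ-free and the antibiotic log2 change passed for 552 of 9300 genes (5.94%), and 10 of these were among the enzymes and pathway genes listed here. Of the 6 mevalonate-to-squalene enzymes they were Idi1 (-2.30) and Fdps (-1.27). Of 11 genes after squalene they were Sqle (-2.98, or -1.92 with an offset of 64), Msmo1 (-2.20), Cyp51 (-2.08), Tm7sf2 (-2.01), Dhcr7 (-1.25) and Ebp (-0.66). Of 8 genes listed for sterol sensing and uptake they were Srebf1 (2.67) and Insig2 (-0.85). These 2 did not pass with the actin covariate (limma adjusted p = 0.0961 and 0.0678). The comparisons differ in strain, experiment and treatment together, which cannot be told apart.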

How the results depend on the processing

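The falls of Pmvk, Idi1, Fdps and Fdft1 in germ-free livers kept their direction and passed in each of 25 alternatives. Over these, Idi1 ran from -2.84 to -2.39, Fdps from -1.68 to -1.40, Fdft1 from -1.24 to -0.88 (adjusted p up to 0.0298) and Pmvk from -1.18 to -0.85. Idi1 and Fdps also passed for the difference between the comparisons in each of 24 alternatives (adjusted p up to 0.0391 for Fdps). No enzyme passed limma's test in the antibiotic comparison under any of its alternatives (25, or 24 for Mvk and Mvd). The values of the other 5 under left-out animals stand beside that comparison. Mvd ran there from -0.06 to 0.18 as single animals were left out, below 0 without control animal 3 (-0.04) or antibiotic animal 15 (-0.06). Mvk and Mvd lay under the 75th percentile filter and have no value there.

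Counts over all genes moved more. For germ-free livers the count was 1901 with every probe set, which tests more features, 606 with the actin covariate, and 654 to 1236 with 1 animal left out, lowest without germ-free animal 3. For the antibiotic comparison it was 1 with an offset of 1, 4 with no filter, 0 with the 75th percentile filter, 6 with a robust prior, 15 with array weights, and 0 (without control animal 2) to 10 (without germ-free animal 1) with 1 animal left out. For the difference it was 869 with array weights, 230 with the actin covariate, and 296 (without germ-free animal 3) to 600 with 1 animal left out; it was 313 without control animal 2. The cause was not tested. Other scalings moved the median of all genes by under 0.1. No paired analysis was possible because the groups compared share no animal numbers.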
